A study of Mus musculus with 6 samples.

Results

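The CXC chemokines are a family of small secreted proteins, named for a pair of cysteines separated by a single residue near the N terminus. The 10 family genes described here were Cxcl1, Cxcl2, Cxcl3, Cxcl9, Cxcl10, Cxcl12, Cxcl13, Cxcl14, Cxcl16 and Pf4. They were chosen by symbol from the 27240 genes of the deposited table, with earlier results of these data known, and all 10 were found. The samples were labelled as primary mouse peritoneal macrophages, phagocytes of the abdominal cavity, treated with oxLDL, low-density lipoprotein altered by oxidation, which macrophages take up through scavenger receptors. Poly(A) RNA of 3 knockout (KO) and 3 wild-type (WT) libraries was sequenced as read pairs, and both groups had received oxLDL. The labels give the genotype as KO without naming the gene, while the title of the series names the kinase DCLK1 and its binding to IKKβ. The labels' extraction protocol speaks of an adipose type, against the labelled cell type, and adipocyte markers were not analysed here. Strain, age, sex, the deleted part of the gene and the way it was deleted are not given in the labels, nor is it said whether replicates were separate animals or cultures. P-values therefore set the group difference only against the spread between these samples, and that spread may be technical. Cells without oxLDL were not analysed here, so each value is a level under oxLDL and not a response to it.

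CXC chemokines bind G-protein-coupled receptors on leukocytes and guide their migration. Cxcl1, Cxcl2 and Cxcl3 carry the ELR motif and draw neutrophils through CXCR2, and macrophages make them after NF-κB activation. Cxcl9 and Cxcl10 lack this motif, are induced by interferons and draw activated T and NK cells through CXCR3. Cxcl12 (receptor CXCR4), Cxcl13 (receptor CXCR5) and Cxcl14 are made without inflammation in many tissues, and Cxcl13, a B cell attractant, is made by peritoneal macrophages. Cxcl16 is made as a membrane-anchored protein that binds CXCR6 and also takes up oxidised lipoprotein as a scavenger receptor. Pf4 (CXCL4), the major chemokine of platelet granules, is also transcribed by macrophages.

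Total counts per library were 72559141 to 74172804 in KO and 68053008 to 79090732 in WT libraries. Scaled by the library total and its TMM factor (0.988 to 1.01), 1 count corresponds to 0.0127 to 0.0147 CPM. Levels in CPM below are scaled in the same way unless said otherwise. Dclk1 had 415, 431 and 377 counts in KO libraries, against 494, 498 and 584 counts in WT libraries. Its log2 fold change (KO over WT throughout) was -0.37 (SE 0.116, edgeR adjusted p = 0.332), and since the count spans the whole gene it checks the genotype labels weakly. Ikbkb, which encodes IKKβ, was at 3.59 ± 0.0971 FPKM in KO and 3.71 ± 0.230 FPKM in WT libraries (SD, n = 3 each; edgeR adjusted p = 0.791). WT replicate 1 lay farthest out on the first principal component of log2 CPM, which held 25.9% of the variance. Its score was 60.7, against -37.3 to -10.9 for the KO libraries and 5.94 to 16.2 for the other WT libraries. A transcript annotated as ribosomal RNA (CT010467) was at 909 to 2634.1 CPM in KO and 644 to 708 CPM in WT libraries, and mitochondrially encoded genes held 2.26 to 2.39% of counts in KO and 2.02 to 2.14% in WT libraries. The part of these differences in the results was not tested. In bulk RNA, fewer cells of a type and less RNA per cell cannot be told apart.

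Of the 10 genes, 7 lie on chromosome 5 in GRCm38. Pf4 (90772435 to 90773383), Cxcl3 (90786103 to 90789600), Cxcl1 (90891241 to 90893115) and Cxcl2 (90903871 to 90905938) lie on the plus strand, with 12719 bases between Pf4 and Cxcl3 and 10755 between Cxcl1 and Cxcl2. Cxcl9 (92321347 to 92328079) and Cxcl10 (92346638 to 92348882) lie on the minus strand, 18558 bases apart, and Cxcl13 (95956951 to 95961068) lies farther along on the plus strand. Cxcl12 is on chromosome 6 (117168535 to 117181367, plus strand), Cxcl14 on chromosome 13 (56288643 to 56296551, minus strand) and Cxcl16 on chromosome 11 (70453983 to 70459984, minus strand). These are the deposited coordinates. They equal those of GENCODE M21 for 9 of the 10 genes, with Cxcl10 as the exception.

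Promoters from RefSeq (GRCm38.p6) were matched for 9 of the 10 genes, and the 250 bases before the RefSeq start were searched on both strands. The sequences of 4 genes are shown because their 95% intervals excluded 0 (Cxcl9 and Cxcl10 lower, Pf4 higher) or because they stand for the neutrophil-attracting genes (Cxcl2). The interval of Cxcl16 also excluded 0 (lower), but Cxcl16 was the gene without a matched promoter and was not searched. Each is written along the gene's strand. Capitals mark matches to the NF-κB core (GGG, any 5 bases, CC) and the interferon-stimulated response element (GAAA, any 2 bases, GAAA). They also mark the letters TTCNNNGAA, a form of the interferon-gamma element, and the letters TATAAA, wherever these lie. Other forms of these elements were not searched.
Cxcl9, minus strand, chr5:92328080-92328329: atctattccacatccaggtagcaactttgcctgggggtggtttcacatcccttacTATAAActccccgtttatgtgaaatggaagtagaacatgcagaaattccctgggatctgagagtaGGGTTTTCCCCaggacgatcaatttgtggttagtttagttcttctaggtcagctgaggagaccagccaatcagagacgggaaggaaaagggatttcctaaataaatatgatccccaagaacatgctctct
Cxcl10, minus strand, chr5:92348890-92349139: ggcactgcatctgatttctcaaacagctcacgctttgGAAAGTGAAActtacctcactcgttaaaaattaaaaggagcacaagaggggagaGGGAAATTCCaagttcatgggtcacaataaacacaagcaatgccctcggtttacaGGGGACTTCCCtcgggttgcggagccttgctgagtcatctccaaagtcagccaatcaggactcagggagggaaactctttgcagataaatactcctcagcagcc
Cxcl2, plus strand, chr5:90903649-90903898: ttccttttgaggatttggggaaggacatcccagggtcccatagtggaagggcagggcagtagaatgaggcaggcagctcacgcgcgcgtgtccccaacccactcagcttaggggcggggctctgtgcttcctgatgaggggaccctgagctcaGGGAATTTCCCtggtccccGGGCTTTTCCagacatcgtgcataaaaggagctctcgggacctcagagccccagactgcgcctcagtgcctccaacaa
Pf4, plus strand, chr5:90772185-90772434: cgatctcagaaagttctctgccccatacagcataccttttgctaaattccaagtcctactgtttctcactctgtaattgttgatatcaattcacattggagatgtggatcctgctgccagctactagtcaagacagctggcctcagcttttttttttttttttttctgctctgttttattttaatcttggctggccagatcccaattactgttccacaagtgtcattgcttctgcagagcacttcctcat

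The NF-κB core occurred in 7 of the 9 promoters and in 45.8% of 32851 mouse promoters of the same length. A narrower form (GGGA, any base, TT, any base, CC), each match of which is also a match to the core, occurred in 4 of the 9, those of Cxcl1, Cxcl2, Cxcl3 and Cxcl10, and in 0.98% of all promoters. Cxcl1, Cxcl2 and Cxcl3 held the same 10 letters, GGGAATTTCC, beginning 71, 97 and 73 bases before the RefSeq start. That start differs from the deposited start in these genes, so the distances do not apply to the deposited coordinates. For Cxcl2 the 250 bases end at 90903898, inside the deposited gene, which starts at 90903871. For Cxcl1 they end at 90891244 (deposited start 90891241) and for Cxcl3 at 90786100 (deposited start 90786103). In the Cxcl10 promoter GGGACTTCCC began 103 bases and GGGAAATTCC 159 bases before the start, and the response element GAAAGTGAAA began 213 bases before it. The response element was found in 2 of the 9 promoters (Cxcl10 and Cxcl14) and 2.98% of all. The letters TTCNNNGAA were found in 1 (Cxcl14) and 7.02% of all, and TATAAA in 3 and 12.4% of all. TATAAA began 30 bases before the start in Cxcl3, 46 in Cxcl13 and 195 in Cxcl9, so its place differed between them. In Cxcl9 the NF-κB core was matched by GGGTTTTCCC, which begins 130 bases before the start. No match to any of these letters was found in the 250 bases of Pf4. A match describes the letters and does not show binding.

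The family was dominated by 2 transcripts in both groups. Pf4 and Cxcl16 together made up 84.9, 85.0 and 86.6% of the summed FPKM of the 10 genes in KO libraries, against 82.3, 84.0 and 83.8% in WT libraries. FPKM is the deposited level per gene length and library size, so that it can be set beside that of another gene. The sum itself was 127, 125 and 117 FPKM in KO libraries and 136, 118 and 121 FPKM in WT libraries, which overlap. Below these, Cxcl2 and then Cxcl3 came next in each of the 6 libraries, and Cxcl12 and Cxcl14 took the last places in each. The mean level over the 6 libraries was 58.7 FPKM for Pf4, 45.9 for Cxcl16, 8.80 for Cxcl2, 4.73 for Cxcl3, 2.52 for Cxcl13, 1.32 for Cxcl1, 0.946 for Cxcl9, 0.671 for Cxcl10, 0.208 for Cxcl12 and 0.159 for Cxcl14. Of neighbours in this order, the ranges of Pf4 and Cxcl16, of Cxcl1 and Cxcl9, of Cxcl9 and Cxcl10 and of Cxcl12 and Cxcl14 overlapped over the 6 libraries.

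**Figure D1:**
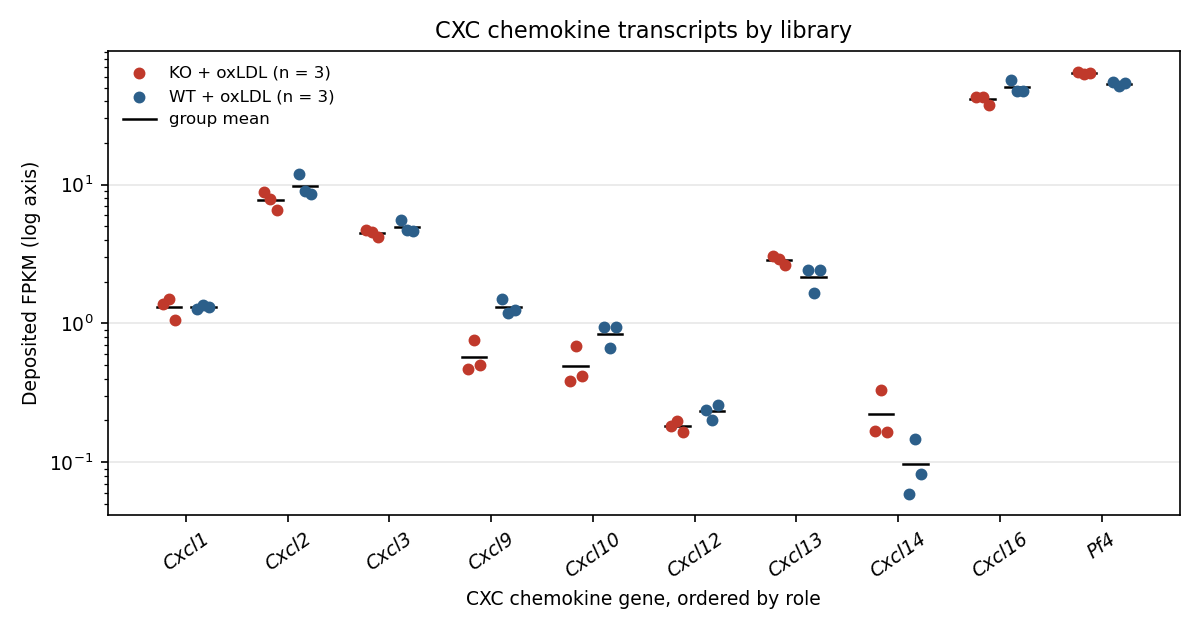
Deposited FPKM (log axis) of the 10 CXC chemokine genes in each library, KO in red and WT in blue, with black bars for group means of 3 libraries. Pf4 and Cxcl16 lie near or above 40 FPKM, and the KO points of Cxcl9 (0.466 to 0.763 FPKM) lie below its WT points (1.19 to 1.501 FPKM).

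The KO and WT groups were compared to ask whether the chemokine transcripts depend on genotype when oxLDL is present. All 10 genes passed the filter on low counts, but Cxcl14 passed only through the KO libraries, in which it is higher, since 2 of its 3 WT libraries reached the minimum of 0.136 CPM. None of the 10 passed an adjusted p of 0.05 in edgeR's quasi-likelihood test, where 0.0677% of the 16239 genes tested passed (0.0431% lower and 0.0246% higher in KO). DESeq2 on the same counts called 3, Cxcl9 and Cxcl16 lower and Pf4 higher, where it called 2.80% of all genes. At an unadjusted p under 0.05 there were 4 in edgeR, with Cxcl9, Cxcl10 and Cxcl16 lower and Pf4 higher, where 10.4% of all genes were under that p (5.71% lower and 4.73% higher in KO). The KO and WT libraries did not overlap in CPM for 7 of the 10, Cxcl14 among them, against 17.6% of all genes. KO libraries were all below WT libraries for 4 of these (8.89% of all genes) and all above for 3 (8.68%). Scaled by the library total alone, an alternative chosen after seeing the data, 6 did not overlap (18% of all genes), with 3 all below (7.44%) and 3 all above (10.6%), since Cxcl3 then overlapped. Fitted values were below 0 for 7 of the 10, against 50.5% of all genes. The median log2 fold change of the 10 was -0.24, against -0.0019 over all genes tested. Since the members were chosen with earlier results of these data known, these counts describe them and are no independent support.

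**Figure D2:**
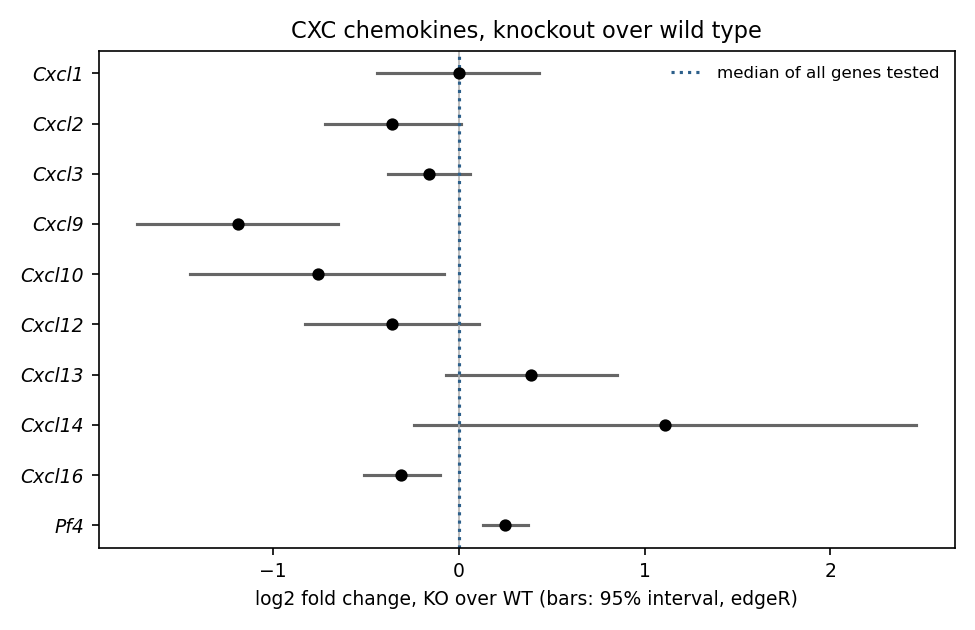
Log2 fold change, KO over WT, of each CXC chemokine gene (points) with its 95% interval (bars) from edgeR, and the median of all genes tested (dotted line). The intervals of Cxcl9, Cxcl10 and Cxcl16 lie below 0 and that of Pf4 above 0, before any adjustment over genes.

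The interferon-induced pair had the lowest fitted values of the family. Cxcl9, an attractant of T and NK cells, was at 0.466, 0.763 and 0.502 FPKM in KO libraries, against 1.501, 1.19 and 1.25 FPKM in WT libraries. Every KO library was below every WT library, and KO replicate 2 was the highest of the KO libraries. The counts behind these values were 118, 188 and 124 in KO and 344, 302 and 331 in WT libraries. The KO level was 0.439 times the WT level (log2 fold change -1.19, SE 0.230, 95% interval -1.73 to -0.65), which did not pass over all genes in edgeR (adjusted p = 0.124) and passed in DESeq2 (adjusted p = 0.000586). Over the 6 fits that leave out a library the fitted value stayed between -1.44 and -1.06, with edgeR adjusted p of 0.149 to 0.377.

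Cxcl10, which shares the receptor CXCR3 with Cxcl9, was at 0.384, 0.693 and 0.415 FPKM in KO libraries, against 0.935, 0.663 and 0.935 FPKM in WT libraries. The groups overlapped, because KO replicate 2 lay above WT replicate 2. Its log2 fold change was -0.76 (SE 0.293, 95% interval -1.45 to -0.08, edgeR adjusted p = 0.418), at 74, 128 and 78 counts in KO and 161, 127 and 187 counts in WT libraries. The fitted value was -1.07 without KO replicate 2 and -0.90 without WT replicate 2, and between -0.69 and -0.61 without any other library. The ratio of Cxcl9 to Cxcl10 FPKM was 1.21, 1.10 and 1.21 in KO libraries and 1.60, 1.80 and 1.33 in WT libraries. Of the exonic bases of Cxcl10, 133 overlap the antisense gene Art3, which had 0 counts in each KO library and 0, 2 and 9 counts in WT libraries.

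The neutrophil-attracting genes did not differ beyond the spread between replicates by edgeR's test. Cxcl2 was at 8.85, 7.84 and 6.59 FPKM in KO libraries, against 12.02, 8.93 and 8.60 FPKM in WT libraries, and KO replicate 1 lay above WT replicate 3. Its log2 fold change was -0.36 (SE 0.157, 95% interval -0.72 to 0.01, edgeR adjusted p = 0.495). WT replicate 1 was the highest of the 6, and without it the value was -0.19. Cxcl3 was at 4.70, 4.53 and 4.21 FPKM in KO libraries, against 5.56, 4.69 and 4.67 FPKM in WT libraries, a log2 fold change of -0.16 (SE 0.0940, 95% interval -0.38 to 0.06, edgeR adjusted p = 0.618). Its groups were apart by a narrow gap in TMM-scaled CPM, at most 18.22 in KO and at least 18.24 in WT libraries, and overlapped in FPKM and in CPM by the library total (up to 18.38 in KO and from 18.13 in WT libraries). Without WT replicate 1 the Cxcl3 value was -0.08. Cxcl1 was at 1.39, 1.51 and 1.06 FPKM in KO libraries, against 1.26, 1.37 and 1.31 FPKM in WT libraries. The KO libraries of Cxcl1 lay on both sides of the WT libraries, and the interval of its log2 fold change ran from -0.44 to 0.43 (edgeR adjusted p = 0.997). Cxcl2 and Cxcl3 are near copies in part. Of their 50-base sequences in GENCODE M21, 5.84% of those of Cxcl2 also occur in Cxcl3, and 4.29% of those of Cxcl3 occur in Cxcl2 or in other genes, so their counts are uncertain to that extent. Cxcl1 shared none.

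Of the genes made without inflammation, Cxcl12 and Cxcl14 were low. Fitted values were above 0 for Cxcl13 and Cxcl14 and below 0 for Cxcl12. Cxcl13, the B cell attractant, was at 3.06, 2.90 and 2.64 FPKM in KO libraries, against 2.41, 1.65 and 2.44 FPKM in WT libraries. Each KO library was above each WT library, and WT replicate 2 was the lowest. Its fitted log2 fold change reached 0.39 (SE 0.196, 95% interval -0.07 to 0.85, edgeR adjusted p = 0.549), and without WT replicate 2 it was 0.23. Cxcl14, whose receptor is not settled, had 26, 50 and 25 counts in KO libraries, against 9, 24 and 14 counts in WT libraries. The groups did not overlap, by a margin of 1 count before scaling, and the log2 fold change of 1.11 had a 95% interval of -0.24 to 2.46 (SE 0.576, edgeR adjusted p = 0.563). Cxcl12, the ligand of CXCR4, was at 0.182, 0.199 and 0.166 FPKM in KO libraries, against 0.236, 0.203 and 0.260 FPKM in WT libraries. Its KO libraries were all below its WT libraries, with a log2 fold change of -0.36 (SE 0.200, 95% interval -0.83 to 0.11, edgeR adjusted p = 0.596).

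The 2 abundant genes had narrow intervals on opposite sides of 0. Pf4 was at 64.9, 63.0 and 63.9 FPKM in KO libraries, against 54.5, 51.7 and 53.9 FPKM in WT libraries. All KO libraries lay above all WT libraries, and the spread within a group was small, at 0.932 FPKM in KO and 1.47 FPKM in WT libraries (SD, n = 3 each). The KO level was 1.19 times the WT level (log2 fold change 0.25, SE 0.0497, 95% interval 0.13 to 0.37), with an adjusted p = 0.130 in edgeR and 0.00559 in DESeq2. Leaving out any of the 6 libraries kept the value between 0.23 and 0.26. Cxcl16, the membrane-anchored chemokine and scavenger receptor, was at 42.9, 43.0 and 37.6 FPKM in KO libraries, against 57.1, 47.5 and 47.2 FPKM in WT libraries. All KO libraries lay below all WT libraries, and WT replicate 1 was the highest. The KO level was 0.807 times the WT level (log2 fold change -0.31, SE 0.0879, 95% interval -0.51 to -0.10), with an adjusted p = 0.265 in edgeR and 0.0223 in DESeq2. Without WT replicate 1 the value was -0.22.

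The order of these genes by FPKM differed between libraries. Pf4 was above Cxcl16 in all 3 KO libraries and in WT replicates 2 and 3, and below it in WT replicate 1. The ratio of Cxcl16 to Pf4 FPKM was 0.661, 0.682 and 0.589 in KO libraries, against 1.05, 0.919 and 0.876 in WT libraries. The ratio was chosen after the values were seen and was not tested. Cxcl16 overlaps the antisense gene Zmynd15 over 552 exonic bases, and 16.9% of its 50-base sequences also occur in transcripts of that gene. Whether counting used strand is not given in the sources used here. Zmynd15 was at 3.09, 2.95 and 2.76 FPKM in KO libraries and 4.08, 4.23 and 3.93 FPKM in WT libraries (log2 fold change -0.49, SE 0.0784, edgeR adjusted p = 0.0833). The FPKM of Cxcl16 was 13.6 to 14.6 times that of Zmynd15 in KO libraries and 11.2 to 14.0 times in WT libraries.

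The libraries differed in which members they held high. In CPM, WT replicate 1 had the highest level of 4 of the 10 genes (Cxcl2, Cxcl3, Cxcl9 and Cxcl16), and KO replicate 3 had the lowest level of 5 (Cxcl1, Cxcl2, Cxcl3, Cxcl12 and Cxcl16). KO replicate 2 was the KO library with the highest Cxcl1, Cxcl9, Cxcl10, Cxcl12, Cxcl14 and, by a narrow gap, Cxcl16. Leaving out KO replicate 2 moved Cxcl14 to 0.70 and leaving out WT replicate 2 moved it to 1.55, the widest range of the 10.

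**Figure D3:**
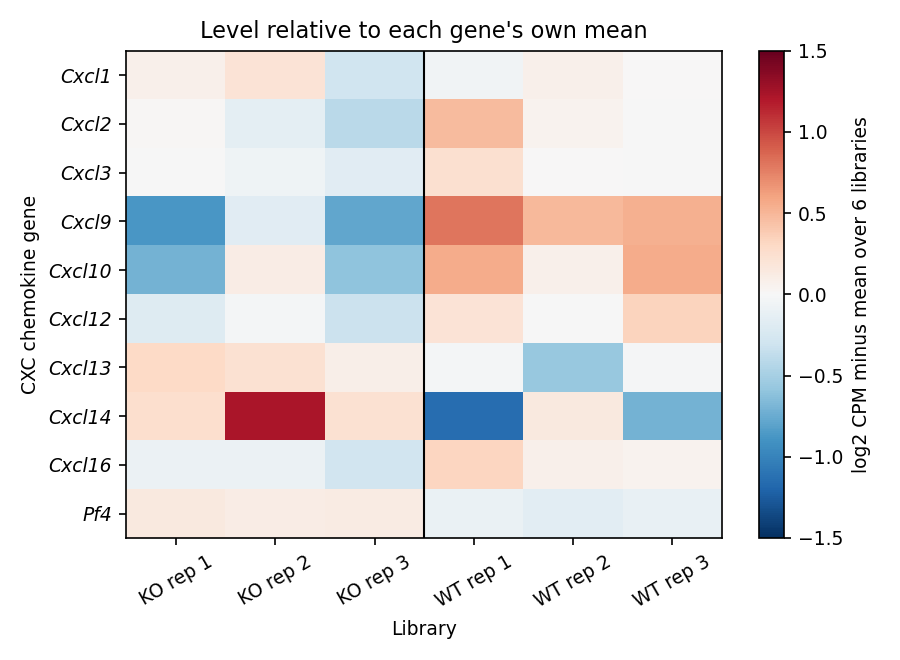
Log2 CPM of each CXC chemokine gene in each library minus that gene's mean over the 6 libraries, KO libraries left of the line and WT libraries right of it. Cxcl9 is above its mean in all 3 WT libraries, and Pf4 is above its mean in all 3 KO libraries.

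**Figure D4:**
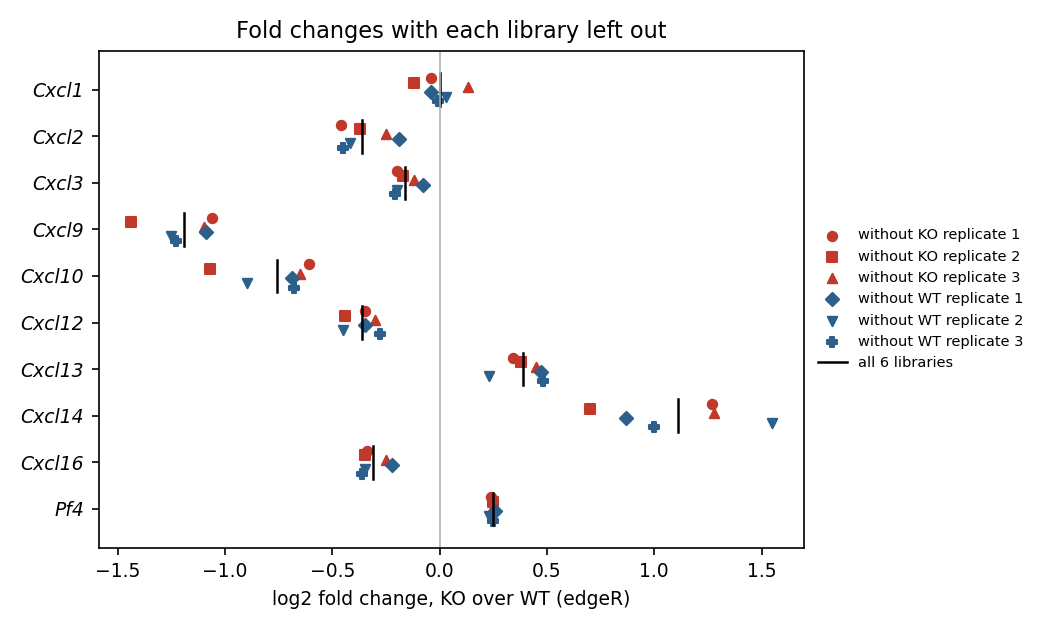
Log2 fold change, KO over WT, of each CXC chemokine gene from edgeR with all 6 libraries (black bars) and with each library left out (red when a KO library, blue when a WT library). Cxcl9 stays between -1.44 and -1.06 and Pf4 between 0.23 and 0.26, while Cxcl1 lies on both sides of 0 (-0.12 to 0.13).

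Among the receptors, Cxcr4, the receptor for CXCL12, was the most abundant, at 39.4, 40.0 and 39.6 FPKM in KO libraries, against 37.5, 37.0 and 35.7 FPKM in WT libraries. Its KO libraries were all above its WT libraries (log2 fold change 0.10, SE 0.0441, edgeR adjusted p = 0.504). Cxcr3, the receptor for CXCL9 and CXCL10, was at 1.06, 0.942 and 0.814 FPKM in KO libraries, against 1.39, 1.29 and 2.03 FPKM in WT libraries. All KO libraries of Cxcr3 were below the WT libraries, with a log2 fold change of -0.75 (SE 0.233, 95% interval -1.29 to -0.20, edgeR adjusted p = 0.318). Cxcr6, the receptor for CXCL16, was at 1.77 ± 0.0680 FPKM in KO and 2.23 ± 0.589 FPKM in WT libraries (SD, n = 3 each, edgeR adjusted p = 0.613). Its KO libraries were all below its WT libraries by a narrow gap, at most 1.844 FPKM in KO and at least 1.857 FPKM in WT libraries. Cxcr1 was at 3.52 ± 0.481 and 3.59 ± 0.765 FPKM in KO and WT libraries (SD, n = 3 each, edgeR adjusted p = 0.964). Cxcr2, the receptor for CXCL1, CXCL2 and CXCL3, had 12, 23 and 12 counts in KO libraries and 23, 0 and 0 counts in WT libraries. Cxcr5 had 19 to 43 counts in KO and 12 to 27 counts in WT libraries, and the scavenging receptor Ackr3 had 0 to 19 counts in KO and 8 to 23 counts in WT libraries. None of the 7 receptor genes tested passed in edgeR, and 1 (Cxcr3) was under an unadjusted p of 0.05. Over all genes tested, 10.4% were under that p, with 5.71% lower in KO. In CPM, KO libraries were all below WT libraries for 2 of the 7 receptor genes and all above for 1, against 8.89% and 8.68% of all genes. Cxcr2 reached the minimum of the filter on low counts in 3 KO libraries but only 1 WT library, so it was tested only through the KO libraries.

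**Figure D5:**
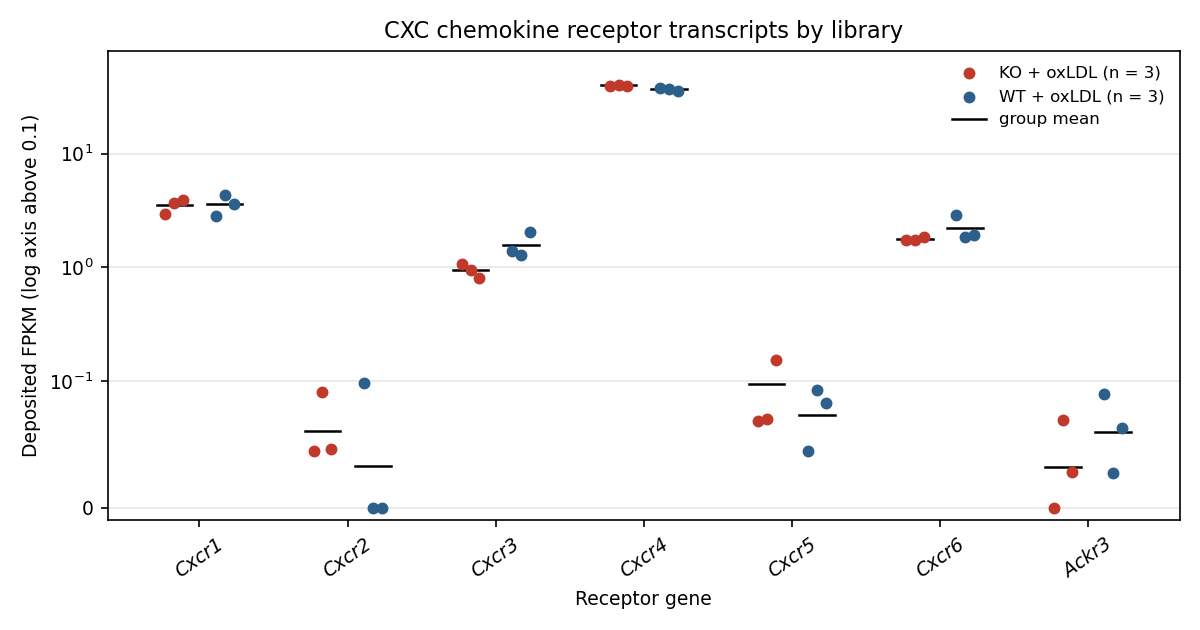
Deposited FPKM of 7 CXC chemokine receptor genes in each library (log axis above 0.1, linear below), KO in red and WT in blue, with black bars for group means of 3 libraries. Cxcr4 lies at 35.7 to 40.0 FPKM, and the KO points of Cxcr3 lie below its WT points.

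Of the other listed ligands Cxcl5, another ELR chemokine, was at 0.296, 0.439 and 0.447 FPKM in KO libraries and 0.855, 0.545 and 0.370 FPKM in WT libraries (log2 fold change -0.60, SE 0.373, edgeR adjusted p = 0.642). Ppbp, the second platelet granule chemokine and a neighbour of Pf4, had 12, 4 and 15 counts in KO and 4, 10 and 0 counts in WT libraries and was not tested. Cxcl11 had 0 counts in all 6 libraries, which allows a level of up to 0.0401 to 0.0410 CPM in KO and 0.0382 to 0.0441 CPM in WT libraries, by counting error only. Of 5 listed ligands, 3 were found, and Cxcl15 and Cxcl17 were not analysed here.

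Of 16 tested genes of interferon signalling, 14 had a fitted value below 0 in edgeR. In that test 7 lower and 0 higher were under an unadjusted p of 0.05, and none passed over all genes. Over all genes tested 50.5% were below 0, and 5.71% lower and 4.73% higher were under that p. Their median log2 fold change was -0.18. Irf1, a transcription factor that acts on the Cxcl9 and Cxcl10 promoters, was at 17.4, 22.2 and 18.5 FPKM in KO libraries, against 46.7, 36.3 and 31.9 FPKM in WT libraries (log2 fold change -1.0, SE 0.149, edgeR adjusted p = 0.0756). Irf1 was lower in every KO library than in every WT library. DESeq2 called it lower (adjusted p = 2.46e-11), where DESeq2 called 2.80% of all genes. Of the receptor and kinase genes, Ifngr2 was at 41.4 ± 0.348 and 43.8 ± 0.614 FPKM (edgeR adjusted p = 0.433) and Jak1 at 56.8 ± 0.816 and 57.7 ± 1.49 FPKM (edgeR adjusted p = 0.781) in KO and WT libraries (SD, n = 3 each). Jak2, a kinase of the interferon-gamma receptor, was also lower in every KO library. It was at 75.4, 75.2 and 76.6 CPM in KO libraries, against 97.9, 85.9 and 95.1 CPM in WT libraries. The log2 fold change of Jak2 was -0.30 (SE 0.0581, edgeR adjusted p = 0.127), and DESeq2 called it lower. Ifng itself, the gene of interferon-gamma, had 15, 14 and 3 counts in KO and 50, 8 and 18 counts in WT libraries (edgeR adjusted p = 0.690), and Ifnb1 had 8, 0 and 0 counts in KO and 0 counts in each WT library.

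In the NF-κB list, Tnf alone of 14 genes passed in edgeR. It was at 12.7, 11.99 and 12.3 FPKM in KO libraries, against 20.1, 18.2 and 19.8 FPKM in WT libraries (log2 fold change -0.67, SE 0.0643, edgeR adjusted p = 0.0270), and did not pass without WT replicate 1, WT replicate 3, KO replicate 2 or KO replicate 3 (edgeR adjusted p up to 0.117), with the replicate number as a block in edgeR (adjusted p = 0.143) or with limma on unfiltered FPKM (adjusted p = 0.0781). Its log2 fold change stayed between -0.71 and -0.61 under all 13 alternatives. The list had 5 lower and 0 higher genes under an unadjusted p of 0.05, where 5.71% and 4.73% of all genes were, and a median log2 fold change of -0.10. None of 7 regulators of chemokine mRNA decay passed, and 0 were under an unadjusted p of 0.05 (median -0.05). Zfp36, which encodes a protein that destabilises Cxcl1-type mRNAs, was at 11.1 ± 0.637 FPKM in KO and 10.6 ± 0.473 FPKM in WT libraries (SD, n = 3 each; edgeR adjusted p = 0.839), and Zfp36l2 at 78.99 ± 2.64 and 81.0 ± 3.81 FPKM (edgeR adjusted p = 0.784). Zc3h12a, which encodes the endonuclease regnase-1, was at 9.44 ± 0.719 and 10.5 ± 0.791 FPKM, and Traf3ip2 at 0.637 ± 0.0656 and 0.786 ± 0.0491 FPKM in KO and WT libraries (edgeR adjusted p = 0.557 for each).

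Genes whose products cleave, modify or hold chemokines numbered 13, and none passed in edgeR, with 4 lower and 1 higher under an unadjusted p of 0.05 (5.71% and 4.73% of all genes) and a median log2 fold change of -0.16. Mmp12, a macrophage elastase that trims ELR chemokines, was at 71.6 ± 2.97 FPKM in KO and 66.9 ± 6.25 FPKM in WT libraries (SD, n = 3 each; edgeR adjusted p = 0.740), and the proteoglycan gene Sdc3 at 57.6 ± 2.48 and 55.1 ± 1.55 FPKM (edgeR adjusted p = 0.749). Mmp14 was at 48.9, 49.1 and 47.4 FPKM in KO libraries, against 60.9, 56.0 and 57.3 FPKM in WT libraries (log2 fold change -0.27, SE 0.0405, edgeR adjusted p = 0.0756). Mmp9, which processes several CXC chemokines, was at 1.19, 0.833 and 1.13 FPKM in KO libraries, against 1.65, 1.62 and 1.82 FPKM in WT libraries (log2 fold change -0.70, SE 0.162, edgeR adjusted p = 0.169). Mmp14, Mmp9 and Adam17 were lower in every KO library than in every WT library, and the groups overlapped for Mmp12, Mmp2 and Adam10. Adam17 was at 386, 387 and 425 CPM in KO libraries, against 428, 456 and 460 CPM in WT libraries. Its log2 fold change was -0.165 (SE 0.05, edgeR adjusted p = 0.303). Mmp8, the neutrophil collagenase, was higher in every KO library, at 35.5, 35.9 and 37.3 CPM, against 32.2, 32.6 and 28.3 CPM in WT libraries (log2 fold change 0.22, SE 0.0717, edgeR adjusted p = 0.336).

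Markers of other cells that make these chemokines or answer to them were measured beside the members. The summed level of 9 T and NK cell markers was 10.2 to 11.2 CPM in KO and 12.8 to 16.0 CPM in WT libraries. Of 7 tested, 3 were under an unadjusted p of 0.05 in edgeR, all lower. So were 2 of 6 dendritic cell markers (sums of 24.2 to 25.6 CPM in KO and 30.4 to 36.6 CPM in WT libraries). Over all genes tested, 5.71% were lower and 4.73% higher at that p, and the groups did not overlap for 17.6%. The T cell receptor genes Trbc2 and Cd3g were at 1.72 ± 0.183 and 0.306 ± 0.0288 FPKM in KO libraries, against 3.33 ± 0.697 and 0.579 ± 0.0191 FPKM in WT libraries (SD, n = 3 each; edgeR adjusted p = 0.185 and 0.154). Trac was at 1.76 ± 0.210 FPKM in KO and 1.95 ± 0.365 FPKM in WT libraries (SD, n = 3 each; edgeR adjusted p = 0.866), the groups also overlapped for Cd3d, Cd3e and Cd8a, and Cd8a had a fitted value above 0 (0.14). Fibroblast and mesothelial markers, whose cells are a source of Cxcl12, summed to 75.6 to 88.5 CPM in KO and 102 to 104 CPM in WT libraries, with 4 of 12 lower and 1 higher at that p. Platelet markers summed to 4.14 to 6.85 CPM in KO and 4.18 to 5.81 CPM in WT libraries, with 0 of 6 tested at that p and the groups overlapping for each of the 6. Neutrophil markers summed to 21.8 to 23.6 CPM in KO and 24.2 to 26.5 CPM in WT libraries, with Ly6g and Retnlg at 0 in all libraries. S100a8 alone made up 20.3 to 22.6 CPM in KO and 23.5 to 26.3 CPM in WT libraries, the sum without it was 0.834 to 1.52 CPM in KO and 0.255 to 1.04 CPM in WT libraries, and Ltf was higher in every KO library (log2 fold change 0.80, edgeR adjusted p = 0.652). B cell markers summed to 5.11 to 6.39 and 4.31 to 5.06 CPM in KO and WT libraries. Siglech was the dendritic marker at 0. All 10 macrophage markers passed the filter, and their sum, which includes the lysozyme gene Lyz2, was 12530.2 to 12677.3 CPM in KO and 20281.1 to 21526.8 CPM in WT libraries. Without Lyz2 the sum was 4567.9 to 4673.0 CPM in KO and 4427.9 to 4603.1 CPM in WT libraries, and the groups overlapped for 7 of the 10 markers. That sum holds shifts in both directions. Itgam was higher in every KO library, at 599, 417 and 525 CPM, against 415, 232 and 332 CPM in WT libraries (log2 fold change 0.65, edgeR adjusted p = 0.344). Csf1r was lower in every KO library than in every WT library (log2 fold change -0.08, edgeR adjusted p = 0.394). Csf1r and Adgre1 averaged 965 and 1016 CPM in KO and 1021 and 1057 CPM in WT libraries, while Gata6, Timd4 and Icam2, markers of resident peritoneal macrophages, averaged 2.01, 0.826 and 1.10 CPM in KO and 2.67, 1.22 and 1.03 CPM in WT libraries. Of all these markers Lyz2 alone passed (edgeR adjusted p = 6.5e-06, lower in KO). The part of the T and NK cell, dendritic and fibroblast differences and of that in S100a8 in the chemokine values was not tested.

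The genes most like each member were sought by the root mean square difference of log2 CPM, each gene centred on its own mean over the 6 libraries, among 10668 other genes of at least 1 CPM. Nearest to Cxcl9, by this measure, were Tgtp1 (0.131), Tgtp2 (0.143) and Serpina3f (0.160), and nearest to Cxcl10 were Hrh2 (0.156), Ccnb2 (0.173) and Ddx6 (0.186). Nearest to Cxcl16 were Dtx3l (0.0293), Polh (0.0310) and Ly6e (0.0311), and nearest to Cxcl2 were Cd40 (0.0744), Ifit3b (0.0758) and Ifi205 (0.0772). Nearest to Cxcl3 were Ifi204 (0.0202), Casp1 (0.0208) and Marcksl1 (0.0230), and nearest to Pf4 were Ecm1 (0.0186), Fli1 (0.0270) and Igf1 (0.0270). Cxcl1 lay nearest to Prune2 (0.0381), Hlx (0.0444) and Rnf138 (0.0466), and Cxcl12 to Cttn (0.0530), Tapbp (0.0542) and Cdc42bpg (0.0603). Cxcl13 lay nearest to Tdrkh (0.0274), Map3k12 (0.0679) and Rasa3 (0.0745), and Cxcl14, under 1 CPM, was not compared. These likenesses rest on 6 libraries and describe them only. A small difference is easier to reach for a gene that varies little, since the members' own root mean square about their means ran from 0.123 for Cxcl3 to 0.648 for Cxcl9.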

How the data were processed

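Poly(A) RNA of 6 mouse peritoneal macrophage libraries was read as pairs on an Illumina NovaSeq, as the labels' protocols state, though they also speak of an adipose type. The submitters' processing notes name HISAT2 2.0. The counter, its use of strand, the annotation and the build are not stated. Whole-number counts per gene were deposited, per the file headers, beside FPKM values, which the authors computed per gene length and depth, per the file headers. Another 12 per-sample columns fit no sample here and were left aside. GRCm38 was taken as the build because 9 of the 10 members have the coordinates of GENCODE M21.

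Groups follow the genotype label. Counts were filtered with filterByExpr, scaled by TMM and tested two-sided with edgeR 4.0.16 (R 4.3.3, quasi-likelihood, genotype alone in the model), with Benjamini-Hochberg adjustment over 16239 genes and a threshold of 0.05. The procedure was tested on simulated data. Intervals are at the 95% level, and floors (3 counts) cover counting error only. Same-group libraries differed beyond sampling noise (chi-square over its degrees of freedom 36.7 to 42.8), so each counts once. Alternatives were no filter, RLE factors, DESeq2 1.42.0, limma 3.58.1 on log2(FPKM + 1) and log2(FPKM + 0.1) among genes reaching an FPKM of 1 in 3 libraries, limma on log2(FPKM + 1) without this filter, the replicate number as a block, and leaving out each library.

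The members and the lists (6 pathway and 7 marker lists) were chosen with earlier results of these data known. The naming rule took the members, Dclk1, Ikbkb, the 3 nearest genes of each member and, from each list, genes past the threshold or, if none, the 2 most abundant and the 2 of smallest p. Marker genes that the rule names are mostly given as sums. A result for 1 gene that the rule names is not reported here. Added with their values known were Cxcr2, Cxcr5, Cxcr6, Ackr3, Ppbp, Cxcl11, Ifng, Ifnb1, Zmynd15, Art3, Jak2, Mmp2, Mmp8, Adam10 and Adam17. So were the T cell, neutrophil and macrophage markers outside the rule.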

Additional observations from a re-analysis of the deposited data

How the results depend on the processing

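Of the 10 CXC chemokines, 0 passed under each alternative except DESeq2, which called 3, with log2 fold changes of -1.19 for Cxcl9, -0.31 for Cxcl16 and 0.25 for Pf4. Directions held for 9 of the 10 members under every alternative that could be fitted to them. Sizes were smaller with limma on log2(FPKM + 1) without the filter, at -0.56 for Cxcl9, -0.30 for Cxcl10, -0.06 for Cxcl12 and 0.15 for Cxcl14, since the pseudocount of 1 is large beside their FPKM. The exception in direction was Cxcl1, at 0.00017 with limma on log2(FPKM + 1) with and without the filter on FPKM, and at -0.12 to 0.13 over the fits leaving out a library (0.13 without KO replicate 3 and 0.03 without WT replicate 2). The filter on FPKM left 7 members to test. The receptor gene Cxcr1 ranged from -0.19 to 0.12 on leaving out a library, at 0.06 without KO replicate 1 and 0.12 without WT replicate 2. Over all genes 11 passed, against 7 with no filter on low counts, 455 with DESeq2, 3 with limma on unfiltered FPKM and 7 to 35 on leaving out a library (7 without WT replicate 1, 24 without WT replicate 2 and 35 without KO replicate 1). Of the pathway and marker genes 2 passed, against 17 with DESeq2, 0 with limma on unfiltered FPKM and 1 to 3 on leaving out a library. The cause of these differences was not tested. With the replicate number as a block, 3 genes passed over all, 1 of the pathway and marker genes and 0 members. Same-numbered libraries correlated at 0.049, 0.027 and 0.017 in their deviations from group means, and each library correlated best with its own number, a hint from the data and not the design, so the numbers were not taken as pairs. Depth limits Cxcl14, Cxcr2, Cxcr5, Ackr3, Ppbp, Ifng, Ifnb1 and Art3, which rest on at most 50 counts a library.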
